A study of Mus musculus with 9 samples.

Results

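The 10 genes described here encode or host regulators of RNA that are best known from neurons. They are Elavl2, Elavl3, Elavl4, Rbpms, Celf3, Celf4, Nova1, Nova2, the microRNA host transcript Mir124a-1hg and Ptbp1. They were picked by gene name, with earlier results of these data known. All 10 were listed in both deposited tables, out of 12388 gene symbols listed in either one. RNA came from CD-1 mouse retinas at E12.5, when most cells are dividing progenitors and the first ganglion cells appear. The groups were 3 knock-in samples (Neurog2GFP over a knock-in allele), 3 mutant samples (Neurog2GFP/GFP) and 3 heterozygote samples (Neurog2GFP/+). Every sample thus carries GFP at one or both alleles of Neurog2, a proneural transcription factor gene, and no group is wild type. Optic cups were selected as GFP-positive and used in pairs, and no cell sort is named, so each sample is a whole mixed retina. Separate litters are not stated for the samples of a group, and the tests measure only the spread between these samples. The sample titles carry the number 466 for mutant and heterozygote samples and 311 for knock-in samples. If that number marks a litter or a batch, it cannot be told apart from the knock-in allele.

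RNA-binding proteins set which exons a neuron joins and how long its messages last. The Elavl (Hu) proteins bind AU-rich and U-rich stretches and stabilise neuronal messages, and Elavl3 and Elavl4 are classic markers of newly born neurons. Celf and Nova proteins steer alternative splicing. Rbpms is widely used as a marker of retinal ganglion cells. Ptbp1 works in the other direction: it represses neuronal exons in dividing cells, and miR-124, made from the Mir124a-1hg transcript and other hosts, represses Ptbp1 as neurons form.

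The values are RPKM, the read density per length of transcript, scaled to the mapped reads of the library, with a single value per transcript and group that the authors computed over the 3 samples. No value per sample is given, so no spread can be printed beside a level, and the depth is unknown. A transcript is called where its q-value in the authors' deposited table, from Cuffdiff, is 0.05 or less, and a gene is called if any of its transcripts is. A gene's summed level is the sum over its listed transcripts. A transcript is listed only if its higher group reached 0.906 RPKM in the first table or 1.04 RPKM in the second, so a transcript that passed through 1 group alone had its direction fixed, and counts of transcripts by direction are descriptions only. "First table" means mutant with heterozygote and "second table" means knock-in with mutant, so the mutant samples appear in both. Neurog2 itself was at 36.2 RPKM in mutants and 30.2 RPKM in heterozygotes, and at 112.3 RPKM in knock-in and 35.5 RPKM in mutant retinas. The tables do not separate its coding part from the rest of the transcript, so these values do not check the genotypes. Sex-linked genes stood apart in the mutant group, though none of 5 was called: Xist summed to 173.7 RPKM in knock-in, 505.2 RPKM in mutant and 183.5 RPKM in heterozygote retinas, and Eif2s3y on the Y chromosome was listed at 0 in the mutant group. Their part in the results was not tested.

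In mutant against heterozygote retinas, 9 of the 10 genes had lower summed levels, and Elavl3, Nova2 and Mir124a-1hg were called lower. The summed levels of these 3 were 0.502, 0.491 and 0.371 of the heterozygote level. None was called higher. Among all 12247 genes of the first table, 1.09% were called lower and 0.245% higher. The median log2 ratio of the 10 genes was -0.92, with a range from -1.62 for Elavl2 to 0.07 for Ptbp1, while that of all genes with a ratio was 0.03. The sums of Elavl2 and Rbpms, among others, include transcripts listed only through the heterozygote, which could only be lower in mutants. In knock-in against mutant retinas, 9 of the 10 had higher summed levels, and Rbpms and Nova2 were called higher. Among all 11989 genes of the second table, 1.03% were called higher and 0.634% lower. The median log2 ratio was 0.39, with a range from -0.42 for Celf4 to 1.23 for Rbpms, against 0.00 over all genes with a ratio. Here the sums of Elavl2, Rbpms and Celf3, among others, include transcripts listed only through the knock-in group, which could only be higher. Those of Elavl2, Rbpms and Celf4, among others, include some listed only through the mutant, which could only be lower. Because the 10 were chosen with earlier results of these data known, setting them beside all genes is a description and no test. Of 9 ganglion cell markers, 8 were called lower in mutants and 1 was called higher in knock-in retinas. Both comparisons use the same mutant samples, so a high or low mutant value moves both at once. In whole retinas, fewer neurons and less RNA per neuron cannot be told apart.

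**Figure D1:**
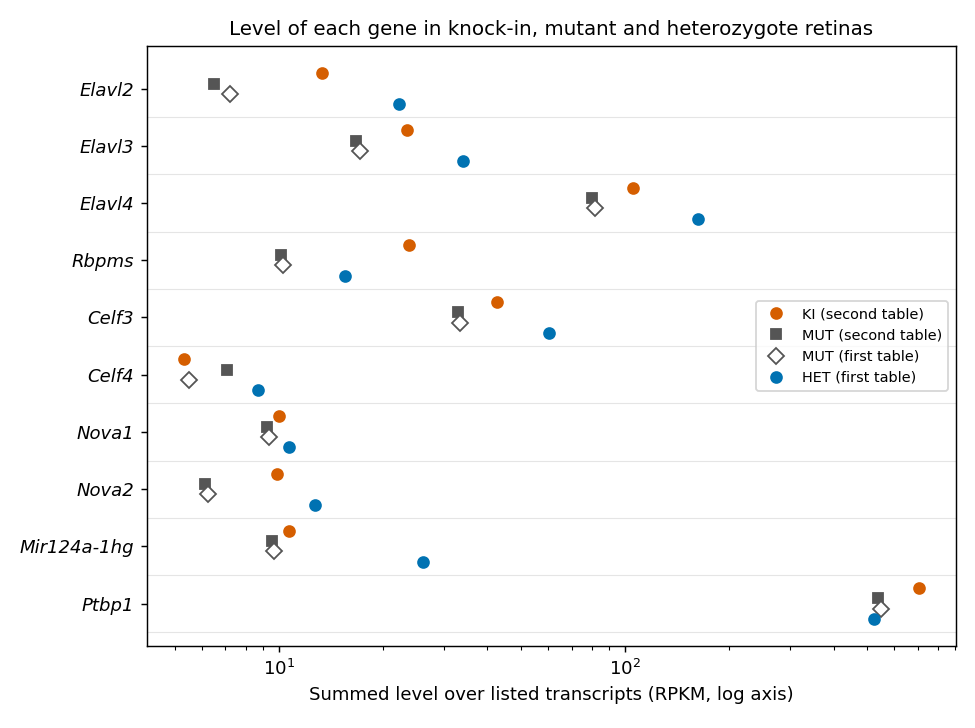
Summed level in RPKM on a log axis for each of the 10 genes, with 1 symbol per group and table and no error bars, since the files hold a single value per group. Mir124a-1hg stands at 10.7 RPKM in the knock-in group and 9.70 in the mutant, against 26.1 in the heterozygote, while Rbpms has its highest value, 23.7 RPKM, in the knock-in group.

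In the GENCODE annotation of mm10, Elavl2 lies at chr4:91250763-91400785 and Elavl4 at chr4:110203722-110351909, both on the minus strand. Elavl3 lies at chr9:22015005-22052023 on the minus strand and Rbpms at chr8:33782643-33929863 on the minus strand. Celf3 lies at chr3:94478295-94492198 on the plus strand. Nova1 lies at chr12:46694517-46818929 on the minus strand and Nova2 at chr7:18925888-18965319 on the plus strand. Mir124a-1hg, annotated as a long intergenic noncoding RNA, lies at chr14:64587331-64593961 on the plus strand, and Ptbp1 at chr10:79854427-79864771 on the plus strand. Each value covers the exons of a transcript.

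Promoters are shown for the 4 genes with a single annotated start, because Elavl3 and Nova2 were called lower in mutants and Nova1 and Ptbp1 were not, and proneural bHLH factors bind the E-box. RefSeq sequences of the GRCm38.p6 build, the assembly behind mm10, run from 250 bases before the start to 50 after it, 5′ to 3′. Capitals mark every match to the E-box CANNTG, which reads the same on both strands.
Elavl3, chr9:22051974-22052273, minus strand: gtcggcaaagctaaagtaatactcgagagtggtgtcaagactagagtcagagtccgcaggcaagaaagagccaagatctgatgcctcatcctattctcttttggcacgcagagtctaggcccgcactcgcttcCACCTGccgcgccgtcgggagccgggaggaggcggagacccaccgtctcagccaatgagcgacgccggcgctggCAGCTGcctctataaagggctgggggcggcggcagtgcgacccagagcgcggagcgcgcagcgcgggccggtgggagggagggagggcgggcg
Nova2, chr7:18925638-18925937, plus strand: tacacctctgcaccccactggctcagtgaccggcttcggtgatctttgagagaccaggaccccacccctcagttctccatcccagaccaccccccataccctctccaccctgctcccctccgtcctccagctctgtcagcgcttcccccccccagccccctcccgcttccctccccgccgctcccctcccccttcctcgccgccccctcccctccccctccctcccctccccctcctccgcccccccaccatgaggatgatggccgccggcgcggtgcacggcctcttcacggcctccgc
Nova1, chr12:46818718-46819017, minus strand: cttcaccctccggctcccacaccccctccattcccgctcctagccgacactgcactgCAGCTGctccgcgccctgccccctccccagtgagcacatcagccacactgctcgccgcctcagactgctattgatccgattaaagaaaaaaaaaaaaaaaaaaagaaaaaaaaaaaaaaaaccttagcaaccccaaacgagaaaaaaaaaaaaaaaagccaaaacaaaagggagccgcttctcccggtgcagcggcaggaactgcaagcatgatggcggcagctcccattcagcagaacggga
Ptbp1, chr10:79854182-79854481, plus strand: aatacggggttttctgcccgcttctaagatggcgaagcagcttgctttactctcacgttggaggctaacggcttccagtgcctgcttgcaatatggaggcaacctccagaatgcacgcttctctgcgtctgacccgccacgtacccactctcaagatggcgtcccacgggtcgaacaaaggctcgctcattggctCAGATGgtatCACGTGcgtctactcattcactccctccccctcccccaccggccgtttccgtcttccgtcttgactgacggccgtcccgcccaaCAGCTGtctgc

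The Elavl3 window holds 2 matches, a CACCTG 117 bases before the start and a CAGCTG 43 bases before it. The Nova2 window holds none. The Nova1 window holds 1 match, a CAGCTG 193 bases before the start, and the Ptbp1 window holds 3. These are a CAGATG 55 bases before the start, a CACGTG that lies 45 bases before it and a CAGCTG that lies 39 bases after it. The motif was thus present in Elavl3 and absent in Nova2, both called lower in mutants, and present in Nova1 and Ptbp1, which were not. Mir124a-1hg, also called lower, had no window. With so few genes, and a motif found in 75.0% of all genes, these windows cannot show whether it bears on the calls. A promoter sequence was matched for 7 of the 10 genes, and 6 of these 7 had a CANNTG in a window, as had 75.0% of 27025 genes in the table. For the form CAGCTG, which is counted within CANNTG, the numbers were 6 of 7 genes and 18.3% of all genes. Elavl2, Elavl4 and Celf3 have several starts with overlapping windows, so they had more chances to match. A match of letters is no evidence of binding. Rbpms, Celf4 and Mir124a-1hg are named without sequence.

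Elavl3 encodes HuC, which is made almost solely in neurons. It has a single listed transcript, at 17.1 RPKM in the mutant group and 34.0 RPKM in the heterozygote, a log2 ratio of -1.0 (p = 5e-05, q = 0.0109 in the authors' deposited table). It was at 23.5 RPKM in the knock-in group and 16.7 RPKM in the mutant, a log2 ratio of 0.49. That difference missed the threshold (p = 0.00075, q = 0.0767 in the authors' deposited table). The mutant level is therefore the lowest of the 3 groups, and only its distance from the heterozygote passed.

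Elavl4 encodes HuD, known for stabilising growth-cone messages such as Gap43, and was the most abundant of the neuronal genes here. Its 7 listed transcripts summed to 81.7 RPKM in the mutant group and 161.9 RPKM in the heterozygote, and all 7 were lower, of which 1 was listed only through the heterozygote. The main transcript was at 46.8 RPKM in mutants and 85.3 RPKM in heterozygotes, a log2 ratio of -0.86 (p = 0.00215, q = 0.191 in the authors' deposited table). Although the summed ratio of -0.99 is almost that of Elavl3, no Elavl4 transcript passed. In the second table the sums were 105.7 RPKM in the knock-in group and 80.2 RPKM in the mutant, and the smallest q of a transcript was 0.783 in the authors' deposited table. The ratio of the summed Elavl4 level to that of Elavl3 was 4.51 in the knock-in group, 4.79 in the mutant and 4.76 in the heterozygote, a measure chosen after the values were seen. The pair thus kept nearly the same proportion in all 3 groups, on a scale per transcript length.

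Elavl2 encodes HuB, the Hu protein that is also made in germ cells. It had the lowest summed ratio of the 10 genes in the first table, with 7.21 RPKM in mutants and 22.2 RPKM in heterozygotes, a log2 ratio of -1.62. None of its 5 transcripts passed, and the smallest q was 0.993 in the authors' deposited table. Its most abundant transcript was at 0.600 RPKM in mutants and 7.83 RPKM in heterozygotes, but its p-value was 0.2435 in the authors' deposited table. The sum is spread thinly: that transcript made up 35.3% of the heterozygote level and 8.32% of the mutant level. It was listed only through the heterozygote, as was another at 0.79 RPKM in mutants and 5.77 RPKM in heterozygotes. Both could therefore only be lower. A transcript at 1.17 RPKM in mutants and 0 in heterozygotes could only be higher. Those above the listing limit in both groups were at 2.37 and 2.29 RPKM in mutants and 4.49 and 4.07 RPKM in heterozygotes. Elavl2 stood at 13.3 RPKM in knock-in and 6.49 RPKM in mutant retinas, again without a call. These sums include transcripts listed only through the knock-in group or only through the mutant. Elavl1, which encodes the Hu protein found in nearly all cells, was at 31.0 RPKM in mutants and 29.3 RPKM in heterozygotes, and was not called.

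Rbpms had the highest summed ratio of knock-in to mutant level among the 10 genes, although with the most abundant transcript alone Elavl2 was above it, at a log2 ratio of 1.93 with no call. Its main transcript was at 13.9 RPKM in knock-in and 5.40 RPKM in mutant retinas, a log2 ratio of 1.36 (p = 5e-05, q = 0.0104 in the authors' deposited table). The sums were 23.7 RPKM in the knock-in group and 10.1 RPKM in the mutant. They include transcripts at 2.62, 1.5 and 1.44 RPKM in the knock-in group and 0.793, 0.516 and 0.493 RPKM in the mutant. These were listed only through the knock-in group, so they could only be higher. Another, at 0.268 RPKM in the knock-in group and 1.37 RPKM in the mutant, was listed only through the mutant. In the first table Rbpms summed to 10.3 RPKM in mutants and 15.5 RPKM in heterozygotes, and no transcript passed (smallest q 0.993 in the authors' deposited table). Set across the tables, which were normalized separately, the knock-in level was 1.53 times the heterozygote level, a ratio that was not tested. In knock-in against mutant retinas 5 of 7 listed pigment epithelium and 3 of 4 listed lens markers were also called higher, as were 1.03% of all genes. Of those called, Tyrp1, Slc45a2 and Foxe3 were listed only through the knock-in group, so they could only be higher. The part of these markers in the Rbpms result was not tested. Its paralog Rbpms2 was at 24.9 RPKM in knock-in and 19.1 RPKM in mutant retinas, with no call.

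Celf3 and Celf4 encode brain-enriched members of the CELF family of splicing and translation regulators. The 6 Celf3 transcripts summed to 33.4 RPKM in mutants and 60.3 RPKM in heterozygotes, a log2 ratio of -0.85. All 6 were lower in mutants, but 2 of them were listed only through the heterozygote. The transcript with the smallest p, at 7.62 RPKM in mutants and 14.1 RPKM in heterozygotes, had p = 0.022 and q = 0.7 in the authors' deposited table, so Celf3 was not called. The Celf3 sums were 42.7 RPKM in the knock-in group and 32.8 RPKM in the mutant, likewise without a call. They include transcripts listed only through the knock-in group, which could only be higher. Celf4 summed to 5.51 RPKM in mutants and 8.69 RPKM in heterozygotes, with a smallest q of 0.489 in the authors' deposited table. It was the one gene of the 10 with a lower sum in the knock-in group, at 5.30 RPKM against 7.08 RPKM in the mutant (smallest q 0.638 in the authors' deposited table). A transcript at 0.011 RPKM in the knock-in group and 1.44 RPKM in the mutant was listed only through the mutant. Another, listed only through the knock-in group, went the other way, at 2.12 RPKM in the knock-in group and 0.522 RPKM in the mutant. With transcripts of a mean of at least 1 RPKM alone, the log2 ratio was -0.09. The mutant sum of Celf4 differed between the tables by 0.36 on the log2 scale. None of its transcripts could be matched between them by mutant values, so whether the same transcripts are listed in each is not known.

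Other CELF genes gave no call. Celf2 was at 134.7 RPKM in mutants and 121.4 RPKM in heterozygotes. Celf5, listed in the first table alone, was at 0.865 RPKM in mutants and 1.78 RPKM in heterozygotes (q = 0.29 in the authors' deposited table).

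Nova1 and Nova2 encode a pair of closely related splicing factors that recognise YCAY clusters, and in the cortex Nova2 is the main form. Nova2 was the only one of the 10 genes called in both comparisons. Its single transcript was at 6.25 RPKM in mutants and 12.7 RPKM in heterozygotes, a log2 ratio of -1.03 (q = 0.0109 in the authors' deposited table). It was at 9.86 RPKM in knock-in and 6.13 RPKM in mutant retinas, a log2 ratio of 0.69 (q = 0.0104 in the authors' deposited table). Nova1 had levels of 9.38 RPKM in mutants and 10.7 RPKM in heterozygotes, and of 10.0 RPKM in knock-in and 9.21 RPKM in mutant retinas. Neither Nova1 difference passed: the authors' deposited table gives q-values of 0.993 and 0.828. The ratio of Nova2 to Nova1 was 0.982 in the knock-in group, 0.666 in the mutant and 1.19 in the heterozygote, a measure chosen after the values were seen. In the GENCODE annotation a long noncoding RNA on the opposite strand, Gm26821, covers 31.7% of the exon bases of Nova2. No source used here says that reads were assigned by strand, so the reads of the pair cannot be told apart over that stretch.

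**Figure D2:**
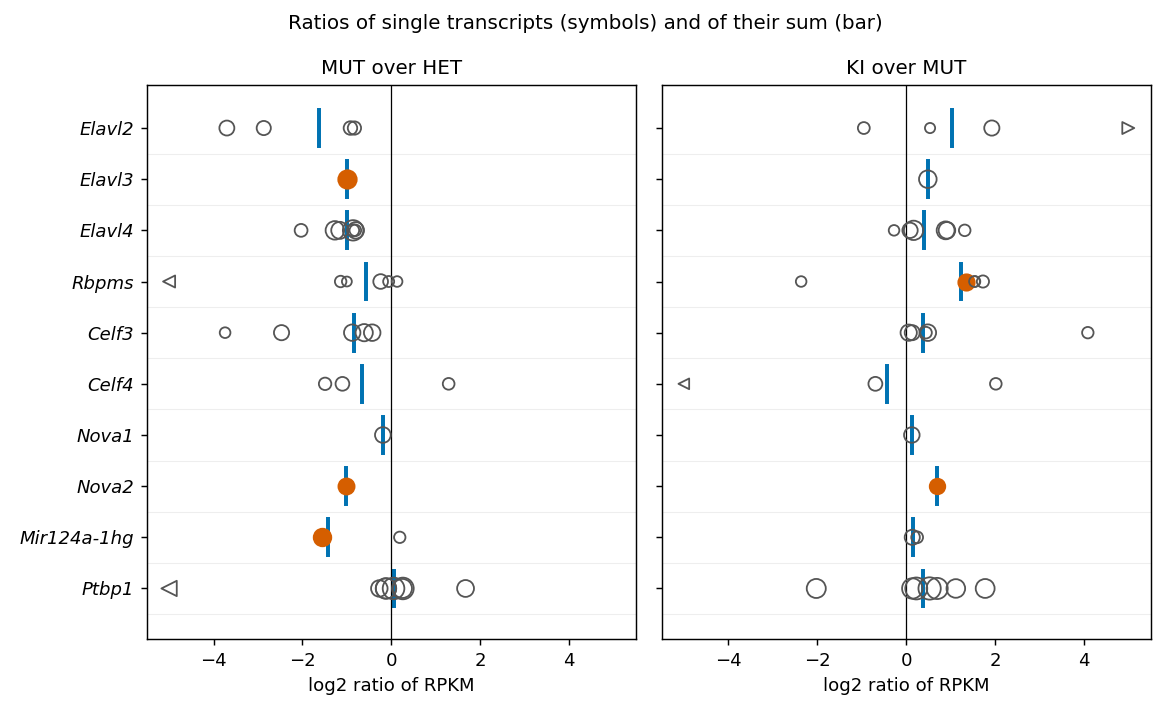
Log2 ratio of RPKM for every listed transcript of the 10 genes, mutant over heterozygote on the left and knock-in over mutant on the right. Symbol area grows with the level, orange symbols passed the authors' test, blue bars are ratios of the sums, triangles lie past 5 on the log2 scale (2 in each panel), and 3 transcripts per comparison with a group at 0 are not drawn. The ratios of the 7 Elavl4 transcripts all lie left of 0 in the left panel, while those of Ptbp1 lie on both sides.

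Mir124a-1hg, also known as Rncr3, is a long noncoding host transcript of miR-124, the most characteristic microRNA of neurons. It had the second lowest summed ratio of the 10 genes in the first table. Its main transcript was at 7.78 RPKM in mutants and 23.2 RPKM in heterozygotes, a log2 ratio of -1.57 (p = 5e-05, q = 0.0109 in the authors' deposited table). In the second table the same transcript was at 8.42 RPKM in the knock-in group and 7.63 RPKM in the mutant, a log2 ratio of 0.14 (q = 0.83 in the authors' deposited table). The knock-in sum of 10.7 RPKM was thus close to the mutant sum of 9.70 RPKM in the first table and far from the heterozygote sum of 26.1 RPKM. Across the tables the knock-in level was 0.408 of the heterozygote level, the lowest such ratio among the 10 genes, and it was not tested. Of the other neuronal genes called lower, Elavl3 and Nova2 were at 0.689 and 0.774 of the heterozygote level. Whether the difference between these genes exceeds the spread between samples was not tested.

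Mir124-2hg, another miR-124 host, was not called in either comparison. Its summed level was 39.4 RPKM in mutants and 47.0 RPKM in heterozygotes, and 35.8 RPKM in knock-in and 38.7 RPKM in mutant retinas. The ratio of Mir124-2hg to Mir124a-1hg was 3.36 in the knock-in group, 4.06 in the mutant and 1.80 in the heterozygote, again chosen after the values were seen. Host transcript levels are not levels of mature miR-124, which these libraries do not measure.

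Ptbp1, the repressor of neuronal exons, was by far the most abundant of the 10 genes. It summed to 548.4 RPKM in mutants and 523.1 RPKM in heterozygotes, a log2 ratio of 0.07, and 55.06% of all genes had a ratio at or below it. Its 8 transcripts went both ways, 4 lower and 4 higher, and none passed (smallest q 0.993 in the authors' deposited table). A transcript at 0.0129 RPKM in mutants and 9.16 RPKM in heterozygotes was listed only through the heterozygote, so it could only be lower. Ptbp1 summed to 705.1 RPKM in knock-in and 538.0 RPKM in mutant retinas, a log2 ratio of 0.39. The transcript nearest to a call was at 41.6 RPKM in the knock-in group and 12.1 RPKM in the mutant (p = 0.01165, q = 0.375 in the authors' deposited table). Another went the other way, at 11.1 RPKM in the knock-in group and 44.9 RPKM in the mutant, and also missed the threshold. The ratio of Ptbp1 to its neuronal paralog Ptbp2, a known Ptbp1 target, was 5.97 in the knock-in group, 4.33 in the mutant and 4.24 in the heterozygote, also chosen after the values were seen. Exons of 3 genes on the opposite strand overlap those of Ptbp1, the largest overlap being 9.22% of its exon bases.

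**Figure D3:**
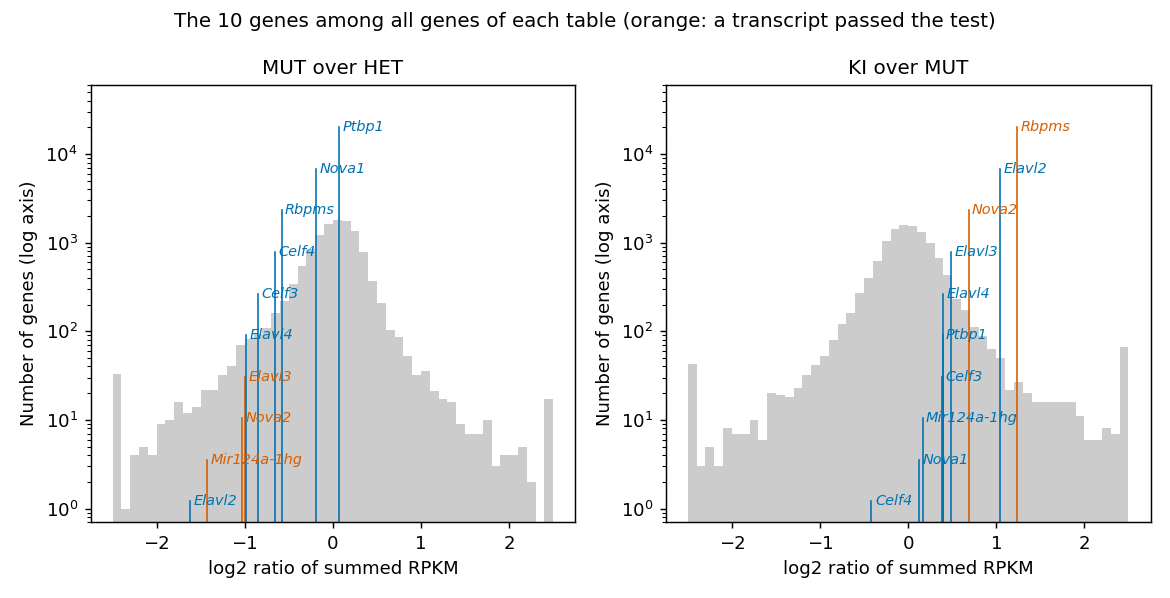
Grey bars count all genes by their log2 ratio of summed RPKM (log axis for the count, values past 2.5 placed at the edge), mutant over heterozygote on the left and knock-in over mutant on the right. Each vertical line is a gene of the 10, orange where a transcript passed the authors' test; line height has no meaning. In the left panel Mir124a-1hg and Elavl2 lie furthest left, at -1.43 and -1.62, and in the right panel Rbpms lies furthest right, at 1.23.

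Related genes were examined in lists that were picked for their roles. Of 16 listed splicing regulators of neurons, 2 were called lower in mutants and none higher, with a median log2 ratio of -0.07. Srrm4, the activator of neuronal microexons, was at 23.7 RPKM summed in mutants and 43.4 RPKM in heterozygotes, a log2 ratio of -0.87. It was called through 1 of its 3 transcripts, at 10.0 RPKM in mutants and 19.1 RPKM in heterozygotes (q = 0.0109 in the authors' deposited table). Rbm24, with a single transcript, was at 3.47 RPKM in mutants and 5.90 RPKM in heterozygotes, with the same q-value. In knock-in against mutant retinas none of the 14 listed was called, and Srrm4 was at 31.8 RPKM in the knock-in group and 23.3 RPKM in the mutant.

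Of 20 listed regulators of mRNA stability and translation, 1 was called lower in mutants, the cytoplasmic polyadenylation factor Cpeb2, with 1.55 RPKM in mutants and 3.33 RPKM in heterozygotes (q = 0.0109 in the authors' deposited table). Zfp36, which speeds the decay of AU-rich messages and is itself an immediate early gene, was the 1 called among 19 in the second table, and lower. It was at 4.88 RPKM in the knock-in group and 8.91 RPKM in the mutant (q = 0.0182 in the authors' deposited table). Msi1, a marker of neural progenitors and the most abundant of the list, was at 172.4 RPKM in mutants and 180.4 RPKM in heterozygotes, with no call.

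None of the 10 genes of microRNA processing was called in either comparison, with medians of 0.09 and -0.11. The 2 most abundant in mutants, Ago1 and Drosha, were at 45.2 and 40.1 RPKM in mutants and at 54.5 and 35.5 RPKM in heterozygotes. Of 5 listed microRNA hosts other than Mir124a-1hg, 1 was called lower in mutants, Meg3, a maternally expressed noncoding RNA, through a minor transcript at 0.520 RPKM in mutants and 1.35 RPKM in heterozygotes. That transcript was listed only through the heterozygote, so it could only be lower. The Meg3 sums were 5.12 RPKM in mutants and 9.72 RPKM in heterozygotes. The median log2 ratio of the 5 was -0.50. It includes Mir99ahg, listed only through the heterozygote, at 0.708 RPKM in mutants and 0.98 RPKM in heterozygotes. None of 4 was called in the second table.

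Genes known as targets of these regulators were counted by level alone, since the tables do not measure exon use. None of 16 known miR-124 targets was called in either comparison, with medians of 0.07 in mutants against heterozygotes and -0.07 in knock-in against mutant retinas. Besides Ptbp1, the most abundant was Ezh2, at 464.8 RPKM in mutants and 443.1 RPKM in heterozygotes. Of 8 listed Elavl targets, Gap43 and Mapt were called lower in mutants, and both are themselves neuronal genes. Gap43 summed to 47.3 RPKM in mutants and 92.7 RPKM in heterozygotes and was called through a transcript at 40.3 RPKM in mutants and 89.6 RPKM in heterozygotes. Mapt, which encodes tau, was at 2.76 RPKM in mutants and 6.69 RPKM in heterozygotes. The list's median log2 ratio was -0.39 in the first table and 0.01 in the second, where none was called. None of the 5 Ptbp1 targets, the 4 listed Nova targets or the 9 listed BAF subunits was called in mutants, with medians of 0.04, -0.18 and -0.14. Nor was any called in knock-in against mutant retinas, with medians of -0.07, -0.17 and 0.03. In mutants the most abundant of these lists were Ptbp2 and Flna among the Ptbp1 targets, Agrn and Gphn among the Nova targets, and Smarcc1 and Smarca4 among the BAF subunits. Of 7 listed family members outside the 10, none was called in the first table (median 0.04), and none of 6 in the second (median -0.07).

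**Figure D4:**
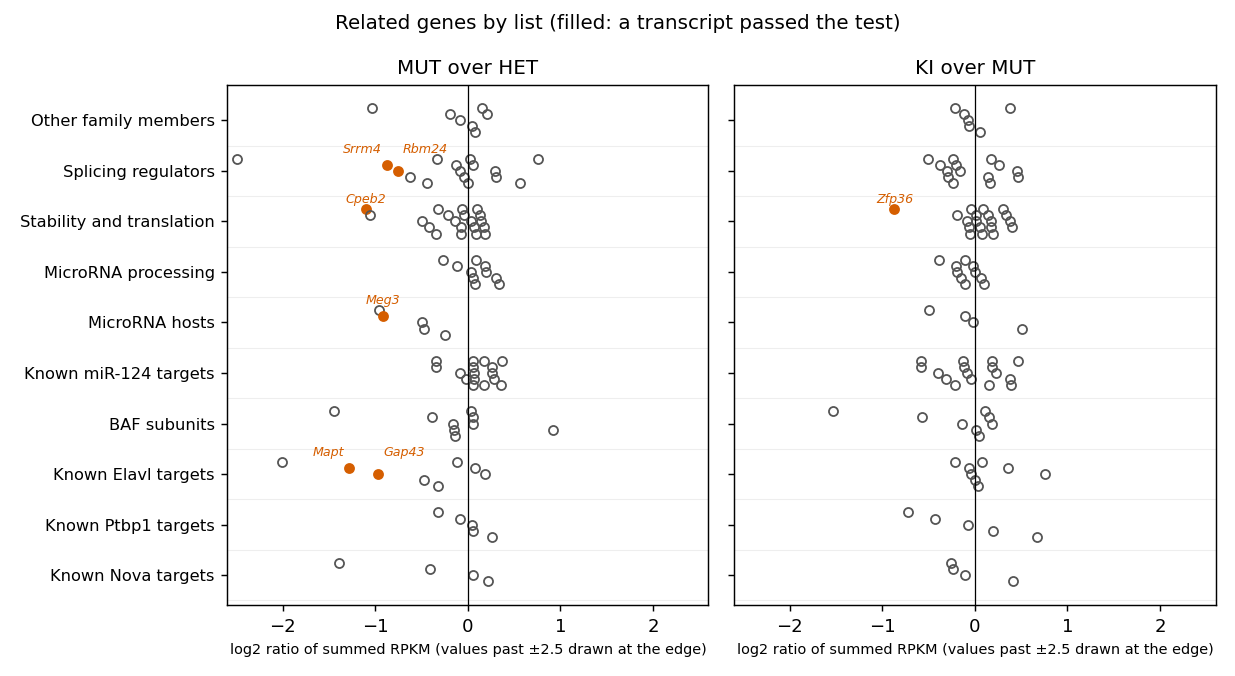
Log2 ratio of summed RPKM for each listed gene of the 10 lists, mutant over heterozygote on the left and knock-in over mutant on the right, with genes called by the authors' test filled and named. The 6 called genes of the left panel lie between -0.76 and -1.28, and in the right panel Zfp36 at -0.87 is the only one named.

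The patterns most like those of single genes were sought as the smallest Euclidean distance in the pair of log2 ratios, over 9158 genes with at least 5 RPKM in 1 or both groups of each table. Elavl3 lay nearest to Gng3, Rian and Syp, at distances of 0.044 to 0.049. Elavl4 lay nearest to Gap43, Gng3 and Scg3, and Celf3 to Runx1t1, Myt1 and Gng2. Mir124a-1hg lay nearest to Nhlh1, at 0.055, followed by Nhlh2 and Cntn2. Nova2 lay nearest to Nsg2, Neurod4 and Mir3112, and Rbpms to Mir568, Lasp1 and Mapk8ip2. Elavl2 had the most distant nearest gene of the 10, Snora61 at 0.104, followed by Dcx and Irx2. Celf4 lay nearest to Snora30, Bbs5 and Fam160b2, Nova1 to Zbtb26, Ascc2 and Mamld1, and Ptbp1 to Snrpd1, Zfp322a and Ppp1r16a. With a pair of ratios per gene and no error, these distances only describe the tables.

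Other differences between the groups moved with these values, and their part in the results above was not tested. The 9 ganglion cell markers summed to 361.2 RPKM in mutants and 743.0 RPKM in heterozygotes, with single levels of 5.78 to 129.0 RPKM in mutants and 14.4 to 268.0 RPKM in heterozygotes. The marker called higher in knock-in against mutant retinas was Pou4f2, at 70.9 RPKM in the knock-in group and 30.5 RPKM in the mutant, and all 9 had higher sums there, with levels of 7.87 to 150.2 RPKM in the knock-in group and 5.67 to 126.6 RPKM in the mutant. The 10 retinal progenitor markers summed to 3012.1 RPKM in mutants and 2485.0 RPKM in heterozygotes and all had higher sums in mutants, but none was called in either comparison. The ganglion cell marker Gap43 is also in the list of Elavl targets. In knock-in against mutant retinas, 5 of 7 listed pigment epithelium markers were called higher, from a list at 1.24 to 31.5 RPKM in the knock-in group and 0.00487 to 6.82 RPKM in the mutant. Likewise 3 of 4 lens markers were called higher, from a list at 1.05 to 38.1 RPKM in the knock-in group and 0 to 13.2 RPKM in the mutant. The 2 of 5 blood markers called higher came from a list at 1.51 to 94.7 RPKM in the knock-in group and 0.0809 to 27.1 RPKM in the mutant, and 1 of 5 periocular mesenchyme markers was called higher, from a list at 1.18 to 14.5 RPKM in the knock-in group and 0.288 to 12.6 RPKM in the mutant. The lens gene Foxe3 was listed at 0 in the mutant group, and it and other markers listed only through the knock-in group could only be higher there. Of 5 immediate early genes 4 were called lower in the knock-in group, with the 5 at 0.421 to 14.2 RPKM against 14.8 to 31.8 RPKM in the mutant. Of those called, Fos, Fosb and Egr1 were listed only through the mutant, so they could only be lower. Jun was above the listing limit in both groups, at 12.1 RPKM in the knock-in group and 26.3 RPKM in the mutant. None of the pigment epithelium, lens, blood, mesenchyme or immediate early genes was called in mutants against heterozygotes, nor was any of 2 listed endothelial genes and 1 macrophage gene in either comparison.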

How the data were processed

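Total RNA of 9 retina samples was sequenced; groups come from the sample titles. The gene inserted in the knock-in allele is not reported here. The submitters' processing notes name Bowtie2, Cufflinks and Cuffdiff and the mm10 build; no version is given in the sources used here. Per the file headers, the authors deposited RPKM values, with 1 value per transcript and group. They also deposited a p-value and a q-value per transcript. The q-values equalled a Benjamini-Hochberg adjustment over each table's 27311 and 26586 transcripts. Rows without a gene symbol or with a date in its place (173 and 172) stayed out of sums. The lowest level in the higher group of a row was 0.906 and 1.04 RPKM, so lower transcripts are not listed.

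RPKM values were summed per gene with Python 3.11.15 and pandas 2.3.3, and log2 ratios were taken without a pseudocount. No test other than the authors' was run. Transcript numbers differ between the tables, so transcripts were matched by their mutant values within 0.05 on the log2 scale of the median shift of -0.03, which joined 24 transcripts; this step was added after the data were seen. The adjustment was tested on simulated data. The named genes are the 10 members, the called genes or the 2 most abundant of each list, and the 3 nearest genes per member. The members and lists were chosen with earlier results of these data known. A planned search for microRNA seed matches was not run. Alternatives were other thresholds on q, a filter on low values, an adjustment over genes, pseudocounts, single transcripts and rescaling between tables. A ratio with no replicates was taken as moved if it shifted by over 1.5 times.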

Additional observations from a re-analysis of the deposited data

How the results depend on the processing

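The files hold 1 value per group, so no replicate could be left out. No paired analysis was possible because the columns carry no replicate numbers. The count of members called in mutants against heterozygotes was 3 under all 4 alternatives run. In knock-in against mutant retinas it was 2, and 3 at a q-value threshold of 0.1 or with 1 p-value per gene, where Elavl3 was added. Over all genes of that comparison, 200 were called, and 305 at a threshold of 0.1. The medians of the 10 log2 ratios kept their direction under every alternative run, from -0.93 to -0.88 in mutants against heterozygotes, from 0.39 to 0.49 in knock-in against mutant retinas, and from -0.52 to -0.39 across the tables. Of 140 ratios of single genes recomputed, 3 moved by over 1.5 times, all for Elavl2 with its most abundant transcript alone: -3.70 in mutants against heterozygotes, 1.93 in knock-in against mutant retinas, and 0.13 across the tables, where the sign turned. Judged by its mutant values, a different transcript is the most abundant in each table. The depth is unknown, and transcripts below about 1 RPKM in both groups are not listed.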
